A study of Mus musculus with 2 samples.

Results

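The genes described here encode the ligands, receptors and effectors of Wnt signalling, and their transcript levels were read in the embryonic mouse liver. Members were the protein-coding genes with a symbol of Wnt or Fzd followed by a number, together with Lrp5, Lrp6, Rspo1 to Rspo4, Lgr4, Lgr5, Rnf43, Znrf3, Axin1, Axin2, Apc, Ctnnb1, Tcf7, Tcf7l1, Tcf7l2 and Lef1. All were found, which gave 47 of 21474 protein-coding genes and of 43346 mouse gene rows. They comprised 19 Wnt ligands, 10 Frizzled receptors, 2 LRP co-receptors, 4 R-spondins, 2 R-spondin receptors, 2 ubiquitin ligases that remove Frizzled, 4 genes of β-catenin and the complex that destroys it, and 4 TCF/LEF factors.

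Total RNA of whole liver at embryonic day 14.5 was sequenced in 2 biological replicates of the B6NCrl strain. Both belonged to 1 group, for which the labels name no treatment and no altered gene, so no test between groups was possible and each value is given per library, with its mean ± SD (n = 2) where livers are combined. Per the labels, each sample was a single liver, the livers were collected on different days, and the sex is entered as pooled male and female. A single liver and a pool of sexes conflict, and both samples carry the same donor entry, so the labels leave unclear what the spread between them measures. They are called livers below, as labelled. RNA above 200 nucleotides was extracted with mirVana, 10 ng went into each library, and synthetic ERCC RNAs were added as spike-ins.

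Wnt proteins are secreted lipid-modified ligands that bind a Frizzled receptor together with Lrp5 or Lrp6. Without a ligand, a complex that holds Axin and Apc marks β-catenin for destruction, and with a ligand β-catenin accumulates and acts with TCF/LEF factors on target genes. R-spondins bind Lgr receptors and the membrane ubiquitin ligases Rnf43 and Znrf3, which otherwise clear Frizzled from the cell surface. In the adult liver, Wnt ligands and R-spondin from endothelial cells around the central vein are known to set the gene programme of the neighbouring hepatocytes.

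The libraries held 37059776 (replicate 1) and 26908926 (replicate 2) estimated reads on mouse genes, of which 17999 and 14039 lay on the 47 members. Levels are in TPM, a share of all transcripts in which reads are scaled by length, so they can be compared between genes. Markers of the labelled tissue were present: 10 of 10 hepatoblast and hepatocyte genes and 10 of 10 endothelial genes reached 1 TPM in both livers, and 0 of 4 lung, 0 of 4 kidney, 0 of 5 neural and 0 of 6 heart and muscle genes did. Of 6 gut markers 1 did, Fabp2 at 11.1 and 11.56 TPM. Erythroid markers summed to 359712 and 345823 TPM, endothelial markers to 121 and 123 TPM and stellate and mesenchymal markers to 137 and 148 TPM. Other lists lay further apart, with the 7 neutrophil markers at a sum of 2643 and 1907 TPM, the 6 megakaryocyte markers at 545 and 685 TPM and the 6 bile duct markers at 9.65 and 7.61 TPM. Within the stellate list, Acta2 was at 10.7 and 7.02 TPM and Lrat at 1.02 and 0.56 TPM, against the direction of the sum. In bulk RNA such as this, fewer cells of a type and less RNA per cell cannot be told apart, and the large erythroid share lowers the TPM of every other gene.

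Each role had detected members, from the ligands to the TCF/LEF factors. Most members were at low level, with β-catenin and Tcf7l2 as the exceptions. A gene was called detected at 1 TPM or more in both livers. By that rule 17 of 47 members (36.2%) were detected, against 49.2% of all protein-coding genes. The detected members were Wnt2, Fzd1, Fzd4, Fzd5, Fzd7, Lrp5, Lrp6, Rspo3, Lgr4, Rnf43, Znrf3, Ctnnb1, Axin1, Apc, Tcf7l2, Tcf7l1 and Tcf7. Another 23 members had reads but fell short of 1 TPM in both livers, and 7 had no read in either library. Detection was uneven between the roles, at 1 of 19 ligands and 16 of 28 other members. The median of the 47 members was 0.305 TPM, against 1.04 TPM for protein-coding genes. Of the 17 detected members, 15 had a mean below 5 TPM, and 2 members reached a mean of 10 TPM, a level that 24.8% of protein-coding genes reached.

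Several members are described with sequence, because the transcripts that the reads were assigned to differ in where they start or in which coding exon they hold. The first set gives promoter windows of β-catenin, the most abundant member, and of Rnf43, the member with the most divided transcripts. Each window runs from 250 bases before to 50 bases after the RefSeq start on GRCm38.p6, and capitals mark the bases transcribed from the start of the transcript named. The β-catenin window is chr9:120933150-120933449 and those of Rnf43 are chr11:87662837-87663136 and chr11:87699647-87699946, all on the plus strand.
Ctnnb1-201: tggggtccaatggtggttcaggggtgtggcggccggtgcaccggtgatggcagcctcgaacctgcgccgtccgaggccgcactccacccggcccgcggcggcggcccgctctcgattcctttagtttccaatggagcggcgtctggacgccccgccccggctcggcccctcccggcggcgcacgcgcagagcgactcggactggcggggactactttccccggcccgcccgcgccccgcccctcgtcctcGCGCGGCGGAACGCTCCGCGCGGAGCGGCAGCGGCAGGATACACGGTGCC
Rnf43-209: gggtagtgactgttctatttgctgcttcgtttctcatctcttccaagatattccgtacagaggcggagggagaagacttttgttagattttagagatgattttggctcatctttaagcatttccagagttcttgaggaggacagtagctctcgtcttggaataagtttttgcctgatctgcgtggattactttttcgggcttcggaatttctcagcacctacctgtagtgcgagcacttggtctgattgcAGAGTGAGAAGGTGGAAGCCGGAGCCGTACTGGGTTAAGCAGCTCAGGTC
Rnf43-201: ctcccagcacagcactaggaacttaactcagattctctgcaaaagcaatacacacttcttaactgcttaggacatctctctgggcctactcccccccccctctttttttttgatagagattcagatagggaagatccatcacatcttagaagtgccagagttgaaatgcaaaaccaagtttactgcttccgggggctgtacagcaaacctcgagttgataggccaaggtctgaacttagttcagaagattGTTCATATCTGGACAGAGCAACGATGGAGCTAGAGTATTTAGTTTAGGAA

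The 3 windows differed in base composition. GC content was 75.3% in the β-catenin window, which held 46 CpG dinucleotides. It was 46.7% with 10 CpG at the upstream start of Rnf43 and 44.3% with 3 CpG at the start 36810 bases downstream. RefSeq windows were found for 31 of the 47 members, 41 windows in all, and their median GC content was 70.0%, against 57.0% for windows of protein-coding symbols. The letters CTTTGAA and CTTTGAT, a core that TCF/LEF proteins are known to bind, were searched on both strands. They were found in 2 of 41 member windows (4.88%), 1 of Wnt5b and 1 of Wnt11, against 7.46% of the 19931 windows of protein-coding symbols and 8.65% of all 32851 windows. None of the 15 windows of detected members held them, which says only that these letters are not in those windows.

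The second set gives coding stretches of Lgr4 and Tcf7l2 from the GENCODE M21 transcripts on GRCm38, where alternative transcripts hold different coding bases. Capitals mark coding bases of that transcript that are not coding in its partner, and for Tcf7l2-209 also the stop codon. Whether the Tcf7l2 bases also occur in the partner as untranslated sequence was not examined. The Lgr4 exon is chr2:109970692-109970763 on the plus strand, 72 bases long, and is shown with 40 coding bases on each side, followed by the junction that forms without it. The Tcf7l2 stretches share their first 40 bases. The short end is chr19:55927730-55927736, which is 4 coding bases and a stop codon, and the long end begins at chr19:55931434-55931553, the first 120 bases of a 421-base coding segment, both on the plus strand.
Lgr4-201: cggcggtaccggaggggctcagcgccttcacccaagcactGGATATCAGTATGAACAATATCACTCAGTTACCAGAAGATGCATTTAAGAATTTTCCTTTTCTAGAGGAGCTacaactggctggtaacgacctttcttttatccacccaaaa
Lgr4-202: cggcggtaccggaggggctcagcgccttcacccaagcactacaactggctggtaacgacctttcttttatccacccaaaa
Tcf7l2-209: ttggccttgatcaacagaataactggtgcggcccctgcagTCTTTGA
Tcf7l2-210: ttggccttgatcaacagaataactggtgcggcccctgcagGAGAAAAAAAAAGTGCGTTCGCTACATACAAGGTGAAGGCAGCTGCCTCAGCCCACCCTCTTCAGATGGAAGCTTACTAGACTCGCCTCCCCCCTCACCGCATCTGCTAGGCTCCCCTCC

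Among the ligands, Wnt2 alone was detected. Wnt2 (ENSMUSG00000010797.4, chromosome 6, 17988940 to 18030585) is a ligand of β-catenin signalling known from liver endothelial cells. It stood at 1.48 TPM (118 reads) in replicate 1 and at 1.30 TPM (80 reads) in replicate 2, a mean of 1.39 ± 0.13 TPM. That was 58.3% and 54.9% of the summed TPM of all 19 ligands, which came to 2.54 and 2.37 TPM. Its lower value lay above the higher value of every other ligand.

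Wnt11 and Wnt5b, ligands usually linked to signalling without β-catenin, came next and could not be ordered. Wnt11 was at 0.33 and 0.40 TPM from 22 and 20 reads, and Wnt5b at 0.40 and 0.23 TPM from 34 and 15 reads. Together with Wnt2 they made up 87.0% and 81.4% of ligand TPM. Wnt4 followed at 0.08 and 0.12 TPM from 13 and 14 reads, below both values of Wnt5b.

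The remaining ligands were at the edge of what could be counted. Wnt6 was at 0.05 and 0.08 TPM from 3 and 2 reads, and Wnt9a at 0.03 and 0.06 TPM from 4 and 6 reads. Wnt2b, at 0.01 and 0.10 TPM, and Wnt5a, at 0.09 and 0.01 TPM, had most of their reads in 1 library. Wnt9b, known from central vein endothelium of the adult liver, had 7 reads in replicate 1, a level of 0.04 TPM, and no read in replicate 2. Wnt3a, Wnt7b, Wnt10b, Wnt3 and Wnt8a had 1 to 4 reads over both libraries. No read was counted for Wnt1, Wnt7a, Wnt8b, Wnt10a or Wnt16. For these 5 genes a count of 0 allows up to 3 reads, which is a level of 0.022 to 0.063 TPM in replicate 1 and 0.032 to 0.091 TPM in replicate 2. Such floors, and all intervals given here, cover counting error only, since amplified reads are not independent molecules. Of the 4 pairs of Wnt genes that lie within 100 kb of each other, Wnt6 with Wnt10a, Wnt3a with Wnt9a, Wnt9b with Wnt3 and Wnt10b with Wnt1, no gene reached 0.1 TPM in either liver.

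**Figure D1:**
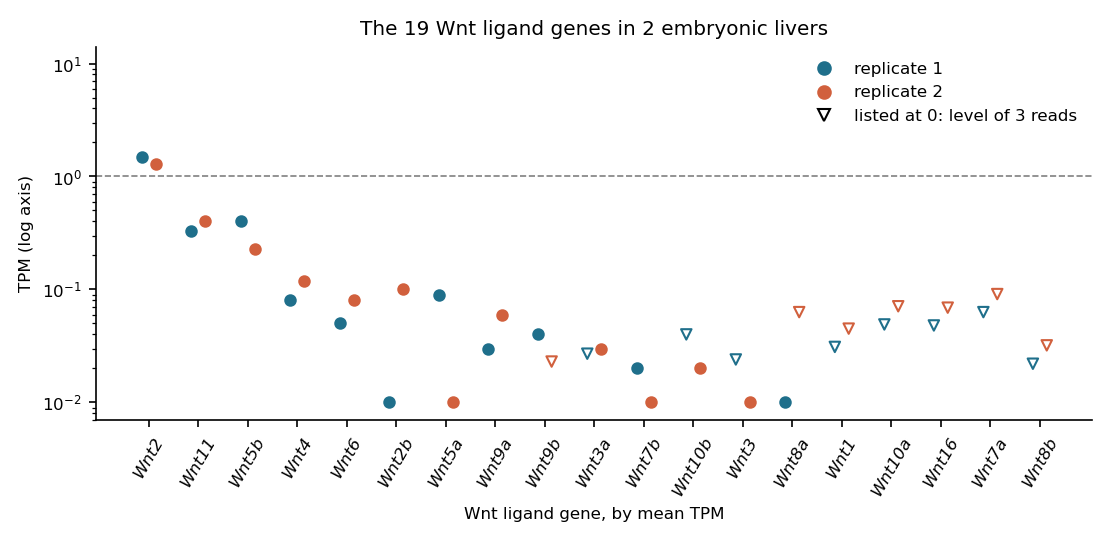
TPM of the 19 Wnt ligand genes (log axis) in replicate 1 and replicate 2, ordered by mean; open triangles mark a gene listed at 0, drawn at the level that 3 reads would give, and the dashed line is 1 TPM. Wnt2 is the single gene with both points above the line, at 1.48 and 1.30 TPM.

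Frizzled receptors were more evenly expressed than the ligands, with 4 of 10 detected. Fzd5 was at 2.14 and 2.59 TPM, Fzd1 at 2.08 and 2.30 TPM and Fzd4 at 1.90 and 2.13 TPM. The ranges of these 3 overlapped, so their order was not resolved. Fzd7 was at 1.05 and 1.23 TPM, below all 3. Together the 4 receptors made up 83.7% and 85.4% of summed Frizzled TPM, which was 8.57 and 9.66 TPM. Fzd4, which also serves as the receptor of norrin, had no detected norrin gene beside it, as Ndp had no read in either library.

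The other 6 Frizzled genes lay below 0.5 TPM. Fzd6 was at 0.49 and 0.45 TPM, Fzd2 at 0.23 and 0.39 TPM, Fzd3 at 0.32 and 0.29 TPM and Fzd8 at 0.15 and 0.28 TPM. The values of Fzd2 and Fzd3 overlapped. Fzd9 had 19 reads in replicate 1, a level of 0.21 TPM, and no read in replicate 2. Fzd10 had no read in either library, with floors of 0.023 and 0.033 TPM. Summed Frizzled TPM was 3.37 times summed ligand TPM in replicate 1 and 4.08 times in replicate 2.

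Both co-receptors were detected. Lrp6, which forms the signalling receptor with Frizzled, was at 3.35 and 3.49 TPM from 1193 and 905 reads. Lrp5, its close relative, was at 1.94 and 1.81 TPM from 373 and 267 reads. Lrp6 was 1.73-fold and 1.93-fold above Lrp5, and the values of the pair did not overlap.

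Among the R-spondins, which amplify Wnt signals, Rspo3 was the single gene detected. Rspo3 is known from central vein endothelium of the adult liver. It was at 2.06 and 2.47 TPM from 198 and 165 reads, a mean of 2.27 ± 0.29 TPM. This was 1.39-fold and 1.90-fold above Wnt2, the leading ligand. Rspo1 was at 0.41 and 0.34 TPM from 30 and 17 reads, Rspo2 had 3 reads, all in replicate 2, and Rspo4 had none. Rspo3 thus held 83.4% and 87.0% of summed R-spondin TPM.

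Of the receptors and ligases that R-spondins bind, 3 of 4 were detected. Lgr4 was at 3.22 and 3.48 TPM from 654 and 494 reads. Lgr5, a receptor and marker of Wnt-responsive stem cells, was at 0.68 and 0.72 TPM from 132 and 94 reads, so Lgr4 was 4.74-fold and 4.83-fold higher. Lgr5 was the 1 member with a mean between 0.5 and 1 TPM. Rnf43 was at 3.63 and 4.01 TPM and Znrf3 at 1.97 and 1.91 TPM, and as a whole gene Rnf43 was 1.84-fold and 2.10-fold higher. The Rnf43 level includes retained-intron transcripts, led by Rnf43-206 at 1.02 and 1.04 TPM. Its main coding transcripts were Rnf43-201, at 0.75 and 1.57 TPM, and Rnf43-209, at 0.8 and 0.78 TPM. Znrf3 lay wholly on coding transcripts, led by Znrf3-201 at 1.93 and 1.81 TPM. The fold therefore does not give the order of the coding transcripts of these genes.

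Ctnnb1, the gene of β-catenin (ENSMUSG00000006932.12, chromosome 9, 120929216 to 120960507), was the most abundant member. Its level was 66.31 TPM in replicate 1 and was 75.15 TPM in replicate 2, a mean of 70.7 ± 6.3 TPM, at the 94.5th percentile of protein-coding genes. It was 43.1-fold and 40.8-fold above Apc, and 21.3-fold and 14.3-fold above Axin1. These are ratios of transcript levels and carry no information on protein. β-catenin also serves in cell junctions, and the gene of its junction partner α-catenin, Ctnna1, was at 21.04 and 23.24 TPM.

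The scaffold genes of the destruction complex were far lower. Axin1 was at 3.11 and 5.26 TPM from 421 and 464 reads, and Apc at 1.54 and 1.84 TPM from 630 and 461 reads. Axin2, a feedback inhibitor that β-catenin signalling is known to induce in many tissues, was at 0.12 and 0.14 TPM from 13 and 12 reads. Axin1 was 25.9-fold and 37.6-fold above Axin2.

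Tcf7l2 was the leading TCF/LEF factor. Tcf7l2 (ENSMUSG00000024985.14, chromosome 19, 55741820 to 55933654) was at 14.52 and 15.52 TPM from 1945 and 1450 reads, a mean of 15.0 ± 0.7 TPM, at the 80.5th percentile. It made up 78.1% and 76.6% of the summed TPM of the 4 factors. Tcf7l1, mostly known as a repressor, was at 2.49 and 2.91 TPM, and Tcf7, best known from T cells, at 1.45 and 1.67 TPM. Lef1 was at 0.14 and 0.16 TPM from 16 and 14 reads, so Tcf7l2 was 104-fold and 97.0-fold above it. Each of the 4 factors was separated from the next by more than the gap between the livers.

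**Figure D2:**
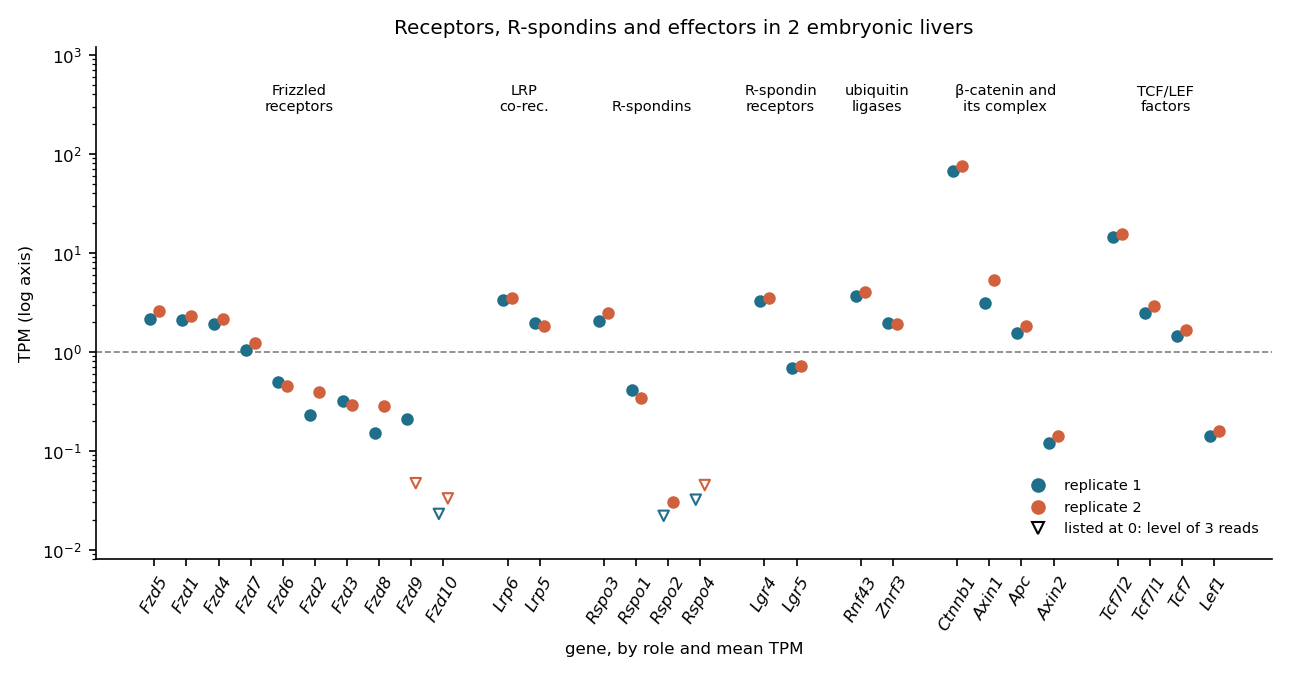
TPM (log axis) of the 28 members other than ligands in both livers, grouped by role; open triangles mark a gene listed at 0 at the level of 3 reads, and the dashed line is 1 TPM. Ctnnb1, at 66.31 and 75.15 TPM, and Tcf7l2, at 14.52 and 15.52 TPM, stand above all other members.

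The livers were close for the detected members. For each gene whose mean reached 1 TPM, the ratio was taken as log2 of TPM + 1 in replicate 2 minus the same in replicate 1. No member of 17 was 2-fold higher in replicate 2, against 0.0463% of 10806 protein-coding genes, and none was 2-fold lower, against 0.148%. Beside backgrounds this small, a count of 0 says little about the members. The median log2 ratio of the members was 0.11 and that of protein-coding genes 0.10. The median absolute ratio was 0.11 against 0.13. These members had a lower median level, 2.27 TPM against 9.78 TPM, and adding 1 TPM shrinks ratios more at low levels. The ratios were therefore not compared at a matched level.

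Axin1 was furthest apart, with a log2 ratio of 0.61. The other 16 detected members lay between -0.11 and 0.19. Its share of reads was 1.52-fold higher in replicate 2, with a 95% exact counting interval of 1.33 to 1.74. Among 3504 protein-coding genes with a mean of 2 to 8 TPM, 1.43% had a log2 ratio as high. The transcript Axin1-201, which holds most of its TPM, was at 2.60 and 3.92 TPM. The short retained-intron transcript Axin1-205 was at 0.35 and 0.84 TPM, from 2.83 and 4.66 estimated reads with posterior SDs of 2.09 and 3.91 reads. The higher level of Axin1-205 therefore lay within its uncertainty. Markers of neutrophils were lower and those of megakaryocytes higher in replicate 2, as given above, and their part in the difference of Axin1 or of any other member was not tested.

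With counting error alone, few members differed between the livers. The ratio of read shares was given an exact conditional interval at 95% for the 32 members with 10 or more summed reads. The interval lay above 1 for 4 of 32 members (12.5%), Wnt2b, Fzd5, Ctnnb1 and Axin1, against 27.3% of 14019 protein-coding genes. It lay below 1 for 2 of 32 members (6.25%), Wnt5a and Fzd9, against 12.2%. With TMM scaling of the libraries the backgrounds became 18.3% above and 18.9% below 1, and Fzd5 lost its call, which left 3 members above and 2 below. The background was not matched to the members on number of reads. Such an interval measures the sampling of reads and not the spread between embryos.

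For Ctnnb1 the difference was small, a ratio of 1.08 with an interval of 1.05 to 1.11, and for Fzd5 it was 1.17, from 1.03 to 1.32. The other 3 rested on few reads. Wnt2b had 1 read in replicate 1 and 10 in replicate 2, a ratio of 13.8 with an interval of 1.96 to 598. Wnt5a had 15 reads in replicate 1 and 2 in replicate 2, a ratio of 0.184 with an interval of 0.0204 to 0.790. Fzd9, a receptor known from brain and bone, had 19 reads against none, and the interval of its ratio ran from 0 to 0.295. Each of these 3 genes stayed below 0.3 TPM in every library by the main estimate.

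**Figure D3:**
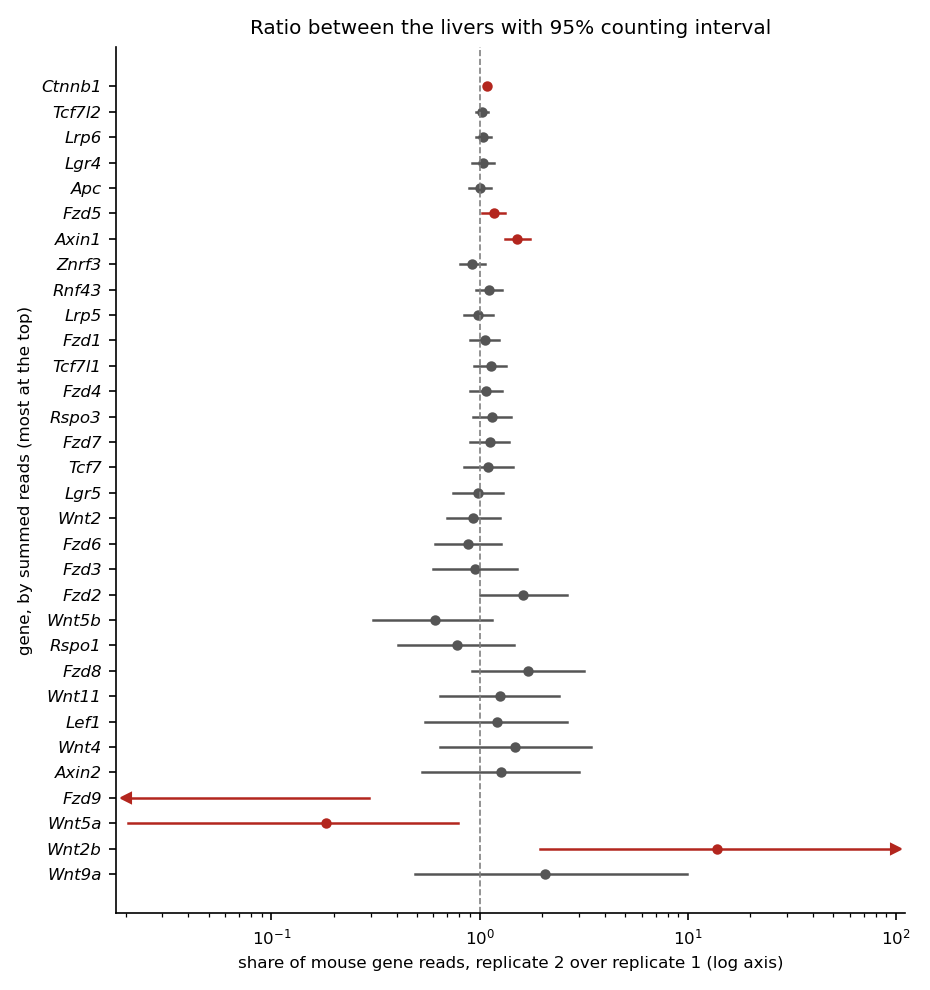
Share of mouse gene reads in replicate 2 over that in replicate 1 (log axis) for the 32 members with 10 or more summed reads, with exact 95% counting intervals; arrowheads mark intervals that run past the axis, and red marks intervals that leave out 1. Axin1 stands at 1.52, while the red intervals at the bottom belong to Fzd9, Wnt5a and Wnt2b, with 11 to 19 reads each.

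Most detected members used 1 leading transcript in both livers. Of the 17 members, 13 have several transcripts in the deposited tables and 4 have 1. The same transcript led in both livers in 12 of the 13, and it held at least 50% of the gene's TPM, averaged over the livers, in 12. Between the livers, the median difference of the leading share was 6.05 percentage points and the largest 38.8. These shares are model estimates for overlapping transcripts, and for several genes their uncertainty is given below as the deposited posterior SD.

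The β-catenin gene was divided in nearly the same way in both livers. Ctnnb1-214 held 57.0% and 59.4% of its TPM and Ctnnb1-201, whose promoter window is printed above, 39.2% and 35.4%. In GENCODE M21 they hold the same coding sequence and their starts lie 172 bases apart. The deposited Ctnnb1-214 is 3422 bases long and that of M21 2702 bases, so its ends may differ between the releases.

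For Tcf7l2 the leading coding transcripts differ at the 3′ end of the coding sequence. Splicing there is known to set the length of the protein's C-terminal tail, and the longest tail completes the C-clamp, a DNA-contacting domain. Tcf7l2-209, with the short end printed above, held 70.6% and 65.7% of TPM and has a coding sequence of 1377 bases. Tcf7l2-210, with the long end, held 11.5% and 14.3% and has 1794 coding bases. Its posterior SD was 45.23 of 281.2 reads in replicate 1 and 47.25 of 260.24 reads in replicate 2, so its share is uncertain. The retained-intron transcript Tcf7l2-206 held 11.6% and 8.93%, level with the long end in replicate 1 and below it in replicate 2. The coding ends of 77 bases, which begin at the same base as the long end and stop earlier, held 1.28% and 2.66%, and the end of 40 bases held 2.93% and 4.18%. Among the ends of 77 bases, Tcf7l2-202 had 15.79 and 30.8 reads with posterior SDs of 22.18 and 23.63 reads. The deposited Tcf7l2-210 is 4126 bases long and that of M21 2135 bases, so the end positions given here are those of M21.

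For Lgr4 the livers gave different mixtures. Lgr4-202, which lacks the 72-base coding exon printed above, held 66.1% and 100% of TPM, and Lgr4-201, which has it, 32.5% and 0%. The posterior SD of the leading transcript was 16% of its reads, so the split is uncertain. The Wnt2 split was also uncertain, with Wnt2-201 at 52.5% and 91.3% of TPM and a posterior SD of 17% of its reads. The rest was assigned to a transcript that is not in M21, so its coding status was not known here. Wnt2-201 alone was at 0.78 and 1.19 TPM, so in replicate 1 Wnt2 reached 1 TPM only with both transcripts.

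Rnf43 was the member without a settled leading transcript. Rnf43-201, from the downstream start printed above, held 20.6% and 39.2% of TPM, and Rnf43-209, from the upstream start, 22.1% and 19.5%. The retained-intron transcript Rnf43-206 held 28.2% and 26.0% and led in replicate 1. Protein-coding transcripts together held 50% and 58.6% of the gene. Rnf43-209 has 381 coding bases more than Rnf43-201. The posterior SD of Rnf43-201 was 30% of its reads, and the sense-intronic RNA gene 1110028F11Rik, which lies inside an intron of Rnf43 on the same strand, was at 3.12 and 1.99 TPM.

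Tcf7 was described by 2 transcripts, and both have 909 coding bases. Tcf7-201 held 68.1% and 69.1% of TPM and Tcf7-202 the rest. Full-length Tcf7 is known to carry a β-catenin binding region that shorter forms lack. Both transcripts code for 303 residues, so these tables did not separate such forms. At gene level, 10 members share exon bases with another annotated gene. For Ctnnb1 the partner is Ulk4 on the opposite strand, with 759 shared bases and 0.16 and 0.10 TPM.

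**Figure D4:**
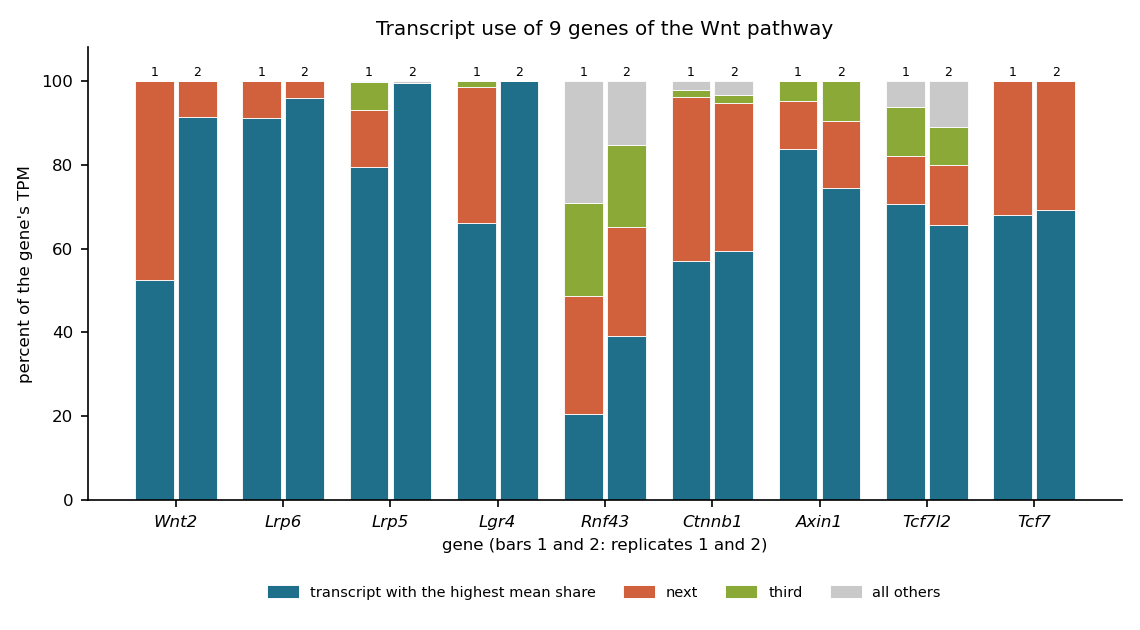
Transcript shares of 9 members, in percent of the gene's TPM, with replicate 1 and replicate 2 side by side; colours mark the transcript with the highest mean share, the next, the third and all others. Ctnnb1, Tcf7 and Tcf7l2 are divided alike in both livers, while the leading share of Wnt2 moves from 52.5% to 91.3% and that of Lgr4 from 66.1% to 100%.

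Other genes of the pathway were taken from 9 lists. Of 105 such genes outside the members, 62 (59.0%) were detected, against 49.2% of protein-coding genes. Their median was 2.22 TPM, against 1.04 TPM, and none whose mean reached 1 TPM differed 2-fold between the livers. The counts per list below are to be read beside the same 49.2%. Of the 3 genes for Wnt secretion, Wls, the carrier that brings Wnt proteins to the surface, was at 4.40 and 4.52 TPM. Porcn, which attaches their lipid, was at 0.45 and 0.73 TPM, and Notum, which removes it, at 0.15 and 0.03 TPM. Of 15 extracellular antagonists 3 were detected, Sfrp1 at 2.10 and 2.34 TPM, Dkk3 at 1.93 and 1.87 TPM and Sfrp2 at 1.02 and 1.39 TPM, while Dkk4 and Kremen2 had no read. Sfrp1 was thus at a level above Wnt2 in both livers.

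Of 9 alternative receptors and co-factors 4 were detected. They were led by Tspan12, a partner of Fzd4, at 15.5 and 14.9 TPM, with Ryk at 3.99 and 4.88 TPM and Ptk7 at 2.41 and 2.73 TPM. In the planar cell polarity core, 4 of 10 were detected, with Vangl1 at 44.2 and 45.2 TPM, Daam1 at 9.41 and 9.97 TPM and Scrib at 3.25 and 3.76 TPM, and with Celsr3 lowest at 0.05 and 0.01 TPM.

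The lists inside the cell were detected most completely. Of 18 Dishevelled genes and partners of the destruction complex 17 were detected. The casein kinase gene Csnk1a1, which primes β-catenin for destruction, was at 57.9 and 60.8 TPM, the tankyrase gene Tnks2 at 15.4 and 17.2 TPM and Csnk1d at 13.6 and 15.6 TPM. The kinase gene Gsk3b was at 8.36 and 8.85 TPM, and Dvl1, Dvl2 and Dvl3, which relay the signal from Frizzled, had means of 2.74, 3.04 and 3.14 TPM. Apc2, the relative of Apc, was lowest at 0.00 and 0.03 TPM.

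Of 18 co-factors of β-catenin and TCF 15 were detected. The co-repressor gene Ctbp1 was at 109 and 133 TPM, above β-catenin itself, the chromatin remodeller gene Smarca4 at 14.3 and 18.4 TPM and Tbl1x at 11.6 and 15.3 TPM, while Pygo1 was lowest at 0.05 and 0.03 TPM. In the cadherin and catenin list 6 of 8 were detected. Beside Ctnna1, Cdh1 was at 12.1 and 11.3 TPM and Cdh2 at 9.52 and 11.4 TPM, and Ctnna3 was lowest at 0.02 and 0.01 TPM.

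Genes often used as readouts of β-catenin signalling did not share a level. Of 17 common target genes, 6 of which are members, 6 were detected. Myc was at 43.4 and 45.1 TPM, Ccnd1 at 20.0 and 22.1 TPM followed by Rnf43, whereas Axin2, Lef1, Lgr5 and Notum lay below 1 TPM and Cdx2 had no read. Both Myc and Ccnd1 are also known to respond to many signals other than Wnt.

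In the list of genes that mark hepatocytes around the central vein of the adult liver, 9 of 14 were detected. Rgn was at 132 and 140 TPM, the glutamine synthetase gene Glul at 81.4 and 80.9 TPM and Oat at 57.5 and 65.3 TPM. Cldn2 was lowest at 0.14 and 0.05 TPM. The cytochrome genes Cyp2e1, at 0.14 TPM in both livers, and Cyp1a2, at 0.07 and 0.15 TPM, were far below Glul. Both were singled out after their values were seen. The genes of this list thus differed widely in level. No adult liver was measured here, so they were not compared with adult levels.

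**Figure D5:**
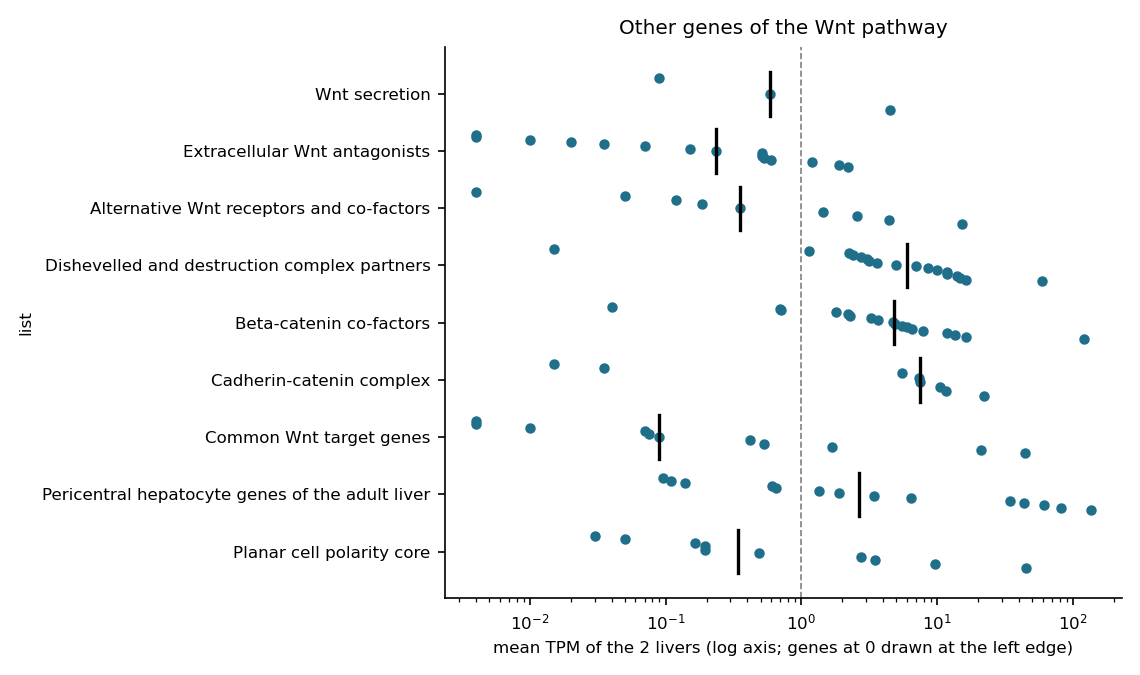
Mean TPM over both livers (log axis) of other pathway genes in 9 lists, with members left out; each point is a gene, black bars are list medians, genes at 0 are drawn at the left edge, and the dashed line is 1 TPM. Of the Dishevelled and destruction complex partners 17 of 18 lie right of the line, and of the extracellular antagonists 3 of 15.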

How the data were processed

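Whole embryonic mouse liver was measured by total RNA-seq in 2 biological replicates of 1 group, grouped by the replicate numbers in the labels. For each library the authors deposited gene and transcript tables, which per the accompanying notes use mm10 and GENCODE M4. Aligner, counting program and use of strand: not given in the sources used here. Overlapping genes can therefore share reads. Per the file headers, the tables hold expected counts (estimated reads, not normalized), TPM and FPKM, and the deposited TPM sums over mouse genes and spike-ins together. The percent of a gene's TPM held by each transcript, a posterior SD of each count and a posterior mean TPM were deposited too. Spike-ins took 7.35% and 6.72% of 39998450 and 28848861 estimated reads.

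Symbols, biotypes, positions and coding segments were looked up in GENCODE M21, which uses the same build, by identifier without version, and promoter windows from RefSeq on GRCm38.p6. Ratios between the livers are differences of log2 values, computed from the deposited TPM plus 1, and this scale understates differences of low genes. Ratios of read shares, with reads on mouse genes as totals, were given exact conditional (Clopper-Pearson) intervals at 95%, from counts rounded to whole reads. A count of 0 was set to 3 reads for floors. SD is over 2 libraries. The interval procedure was tested on simulated counts with counting error alone, for genes with far more reads than Wnt2b, Wnt5a and Fzd9. That simulation therefore cannot show how the intervals behave at such low counts or with spread between embryos. No p-value was computed.

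All members are named. Of each other pathway list the 3 highest, the lowest and any gene 2-fold apart at a mean of 1 TPM were named by rule. Gsk3b, Dvl1, Dvl2, Dvl3, Tbx3, Cyp2e1 and Cyp1a2 were added after their values were seen, as were the transcripts singled out. Members, lists and tests were chosen with earlier results of these data known. The symbol Tle5 matched no gene. Alternatives were other detection levels, FPKM, TPM without globin genes, other pseudocounts and filters, TMM factors (edgeR 4.0.16) and size factors (DESeq2 1.42.0), both without a test, and each library alone. Posterior mean TPM was added after the data were seen. Software was R 4.3.3 and Python 3.11.15, with matplotlib 3.10.9, scipy 1.17.1, pandas 2.3.3 and numpy 2.4.6.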

Additional observations from a re-analysis of the deposited data

How the results depend on the processing

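Of the 47 members, 17 were detected with FPKM and with posterior mean TPM, against 49.4% and 50.6% of protein-coding genes. At 0.5 TPM or without globin genes 18 were detected, against 53.8% and 52.0%. At 5 TPM 2 were detected, against 33.0%, and at 0.1 TPM 27, against 61.6%. By 10 expected counts in both libraries 28 were detected, against 60.3%, so by that rule the members lay near the background. At 5 TPM, Ctnnb1 and Tcf7l2 remained, and 33 of the other pathway genes. The median level of the members was 0.47 TPM without globin genes, and 0.23 to 0.28 TPM with 1 library left out. Members 2-fold apart were 0 under each of the 7 alternatives. The median log2 ratio ran from 0.03 without a filter on level to 0.16 when the pseudocount was 0.1. Protein-coding genes gave 0.00 and 0.11 under these settings. For Axin1 the log2 ratio was 0.34 when the pseudocount was 5 and 0.74 when it was 0.1. With TMM or DESeq2 scaling Fzd5 no longer had an interval above 1, and with TMM factors Znrf3, Apc and Tcf7l2 had log2 ratios of -0.16, -0.04 and -0.02. The log2 ratio of Ctnnb1 fell to 0.06 with TMM factors, from 0.18, and its interval stayed above 1. With a minimum of 50 summed counts, 0 members had an interval below 1. By expected counts, which are not scaled by length, leading shares were 52.7% for Wnt2, 36.9% for Fzd5, 76.7% for Lrp6, 88.0% for Rspo3, 83.6% for Lgr4, 48.7% for Rnf43, 89.1% for Ctnnb1 and 81.1% for Tcf7l2. Rnf43 thereby fell behind Znrf3 in replicate 1, with 439 against 509 reads, and stayed ahead in replicate 2, with 355 against 341.

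No paired analysis was possible because the samples form 1 group. With 2 libraries the SD is itself poorly known, and members under 10 reads cannot be ordered at this depth. In all, 63 of 78 alternatives for the counts, medians and shares stayed within the limits set. These are 1.5-fold for a count, 1 SD for a level, 1 SD plus 0.1 points for a share and 0.1 for a median log2 ratio. A share from 1 library alone always lies within its limit by arithmetic, so those alternatives say nothing on stability. Every leading share by expected counts lay outside its limit.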
